A study of Mus musculus with 3 samples.

Results

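The ATF4 pathway and the amino acid synthesis genes it is known to govern were followed through the polysome gradient of lymph node stromal cells depleted of Eif4g3. The set holds 10 genes, Atf4, Atf3, Atf5, Ddit3, Trib3, Asns, Psat1, Phgdh, Shmt2 and Slc7a11. They were chosen by name, among 27745 gene names on the array, and are read by 16 of its 41174 probes. Cultured stromal cells from lymph nodes of BALB/c mice were transfected either with a control siRNA or with one that targets Eif4g3, at 400 pmol each. Eif4g3 encodes eIF4GII, a scaffold that links the mRNA cap to the ribosome at initiation. Both groups had a media change at 24 h and were harvested at 48 h. Lysates of 7 pooled plates per siRNA were spun through 10% to 60% sucrose, and the gradient was pooled into a top, a light polysome and a heavy polysome fraction. For each fraction, RNA of both groups was hybridised together on 1 array, with Eif4g3 siRNA RNA in red and control siRNA RNA in green.

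ATF4 is the transcription factor of the integrated stress response. Kinases that sense amino acid shortage, endoplasmic reticulum stress, heme shortage or double-stranded RNA phosphorylate eIF2, which lowers translation in general and raises translation of Atf4 mRNA, whose main reading frame lies behind short upstream reading frames. ATF4 with a C/EBP partner then binds C/EBP-ATF response elements and turns on genes for amino acid synthesis, amino acid import and tRNA charging, together with the factors ATF3, CHOP and ATF5 and the feedback inhibitor TRIB3.

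The core of that element, TGATGNAA, or its reverse complement TTNCATCA, was searched in the 300 bases around each start site, from 250 before to 50 after it, on both strands. All 10 genes matched a RefSeq window on GRCm38.p6, with 12 windows in all. The core was present for 4 of the 10 genes, against 4.51% of 27025 genes. The stretches of 100 bases below, all from the minus strand, show where it lies. Each is written 5′ to 3′ on the gene's own strand, with the core in capitals, and positions count from the start site as +1. The Asns core lies at -23 to -16 in the stretch chr6:7693210-7693309, the Atf3 core at -110 to -103 in the stretch chr1:191183389-191183488 and the Trib3 core at 15 to 22 in the stretch chr2:152344039-152344138. Slc7a11 holds the core in both orientations, at -66 to -59 and at -47 to -40 in the stretch chr3:50443615-50443714.
Asns: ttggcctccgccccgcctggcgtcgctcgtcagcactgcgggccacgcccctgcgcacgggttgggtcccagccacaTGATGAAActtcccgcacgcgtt
Atf3: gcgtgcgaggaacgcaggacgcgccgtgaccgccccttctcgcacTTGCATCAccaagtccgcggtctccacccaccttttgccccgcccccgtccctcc
Trib3: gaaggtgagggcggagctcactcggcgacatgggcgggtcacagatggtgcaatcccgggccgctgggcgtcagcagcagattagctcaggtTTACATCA
Slc7a11: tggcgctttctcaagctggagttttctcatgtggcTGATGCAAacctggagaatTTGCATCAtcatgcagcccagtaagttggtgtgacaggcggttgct
A match is a run of letters and not a shown binding site. No match was found in the windows of Atf4, Atf5, Ddit3, Psat1, Phgdh and Shmt2.

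Values below are log2 ratios, Eif4g3 siRNA over control, set so that the middle of each array lies near 0. This hides any shift of all mRNAs together. The ± is the spot error that the scanner software gave for its own ratio, combined over probes. It was not computed anew for the normalized ratios printed here, whose slopes on the software's ratio were 0.579, 0.725 and 0.723 in top, light and heavy. It is therefore a rough guide to their spread. With 1 array per fraction there is no replicate error and no test, array and fraction cannot be told apart, and the dyes were not swapped, so a dye effect of a probe cannot be told apart from an effect of the siRNA. Genes measured in both channels numbered 10943 in the top fraction, 14094 in light and 14402 in heavy polysomes. The channels were unequal in brightness, with upper-quartile signals of 40.5 (control) and 39.6 (siRNA) in the top, 288 and 686 in light and 1078 and 367 in heavy polysomes. Eif4g3 itself was lower after its siRNA on all 3 arrays, at -0.43 ± 0.16 in the top fraction, -1.06 ± 0.16 in light and -1.77 ± 0.19 in heavy polysomes. The control channel was above background for 14 of 16 listed fibroblastic stromal markers in the heavy fraction, and the leukocyte gene Ptprc and the endothelial gene Pecam1 were not above background in that channel on any array. Other leukocyte genes (5 of 10, among them Cd68 and Lyz), endothelial genes (4 of 8) and epithelial or muscle genes (5 of 8, among them Acta2) were above background in the heavy fraction. The last list had ratios of -0.03 (Acta2) and 0.86 (Cnn1) in the top fraction, and medians of 0.40 over 4 genes in light and 0.20 over 4 in heavy polysomes. The stromal list had 11 of 13 below 0 in the top fraction, where 49.6% of all genes were, with Vim at 1.05. Its medians were -0.11, 0.03 and -0.07 in top, light and heavy. The part of such cells in the ratios was not tested, and in these bulk fractions fewer cells of a type and less RNA per cell cannot be told apart.

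After Eif4g3 siRNA the 10 genes did not move as a block. In the light fraction Atf3 was 1.59-fold higher and Atf4 1.69-fold lower, and in the heavy fraction Shmt2 was 1.79-fold lower. These were the members past 1.5-fold. In the light fraction 1 of 10 members was past it upward, where 3.48% of all genes were, and 1 of 10 downward, where 2.63% were. In the heavy fraction 0 of 10 were past it upward (3.52% of all genes) and 1 of 10 downward (3.73%). In the top fraction 0 of 9 measured members were past it upward (2.76%) or downward (2.5%). At 2-fold in either direction there were 0 members on any array, against 0.695% of all genes in the top fraction, 0.688% in light and 0.805% in heavy polysomes. With so few members each such share rests on 1 gene. The median of the members was 0.09 in the top fraction (9 genes), -0.16 in light and -0.14 in heavy polysomes (10 genes each), where all measured genes had medians of 0.00, 0.01 and -0.01.

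**Figure D1:**
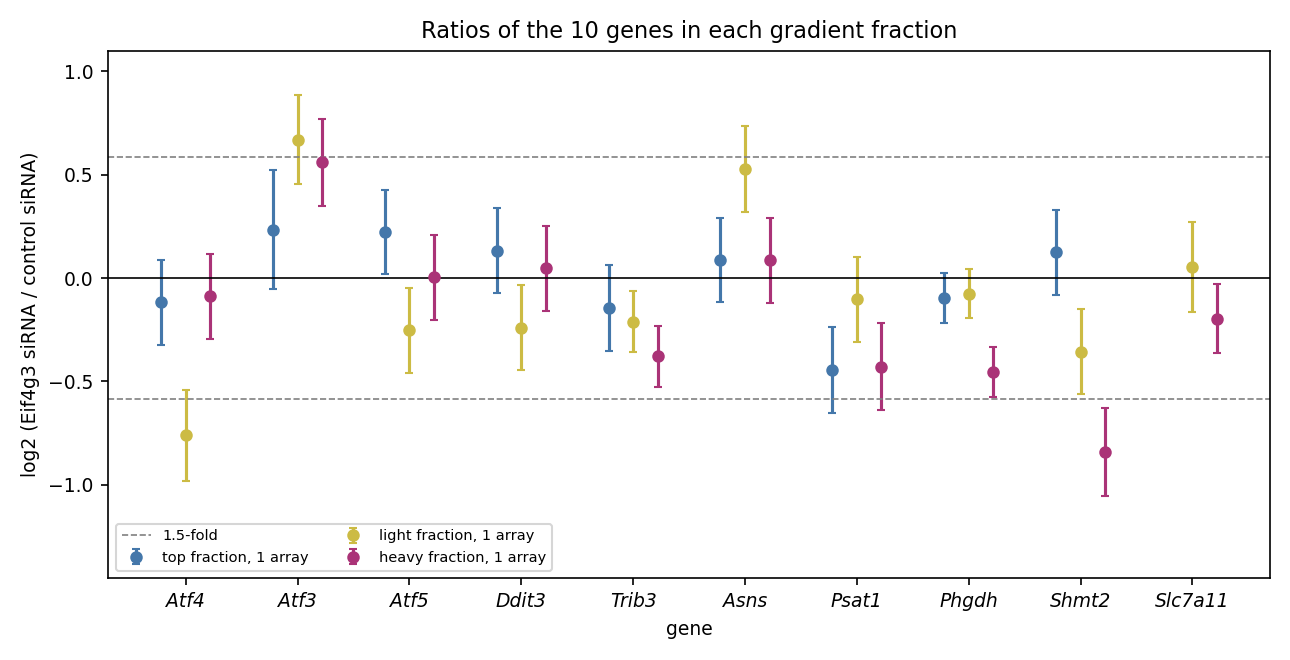
Log2 ratio, Eif4g3 siRNA over control (vertical axis) for the 10 genes (horizontal axis) in the top, light and heavy fraction, 1 array each. Bars are the spot error and dashed lines mark 1.5-fold. Atf4 lies at -0.76 in the light fraction alone, Shmt2 steps down from 0.12 over -0.36 to -0.84, and Slc7a11 has no top value.

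Among the transcription factors, Atf4 stood out in the light fraction. Its 1 probe (chr15:80083904-80083963 on mm8, plus strand) gave background-subtracted control signals of 574, 2185 and 2264 in the top, light and heavy fraction and siRNA signals of 548, 3048 and 771. Set against the brightness of each channel, the siRNA signal was low in the light fraction and near the control's in the other two. The log2 ratios were -0.12 ± 0.20 in the top fraction, -0.76 ± 0.22 in light and -0.09 ± 0.20 in heavy polysomes. The light value had 0.993% of all measured genes at or below it. The light ratio was lower than the top ratio by -0.64 ± 0.30, while heavy and top differed by 0.03 ± 0.29. Without the intensity-dependent normalization the light ratio was 0.08 on an array whose genes had a median of 0.62, so it lay -0.53 from the other genes, short of 1.5-fold.

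Atf3, a stress-induced member of the same bZIP family, had the highest heavy value of the 10 genes and, with the intensity-dependent normalization, the highest light value. Without it Asns was higher in the light fraction, at 0.91 against 0.75 relative to the median gene. Its control signals were 21.3, 220 and 721 and its siRNA signals 31.9, 850 and 393 in the top, light and heavy fraction. The ratio was 0.23 ± 0.29 in the top fraction, 0.67 ± 0.22 in light and 0.56 ± 0.21 in heavy polysomes, so all 3 lay above 0 and the heavy one just short of 1.5-fold. The top signals were dim, and there the value followed the background handling, with 0.62 at a background offset of 0 and 0.97 by the software's own ratio.

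Atf5, a bZIP factor of amino acid and mitochondrial stress, and Ddit3, which encodes CHOP, had the same order of ratios, with the light fraction lowest. Atf5 had 0.22 ± 0.20 in the top fraction, -0.25 ± 0.21 in light and 0.00 ± 0.20 in heavy polysomes. Ddit3 had 0.13 ± 0.21, -0.24 ± 0.21 and 0.05 ± 0.21. The light value was below the top value by -0.47 ± 0.29 for Atf5 and by -0.37 ± 0.29 for Ddit3, each less than 2 spot errors. The light fraction was thus the lowest of the 3 for Atf4, Atf5 and Ddit3. Light also had the lowest median over all genes that were, like these 3, at least 2-fold lower in heavy than in top in control cells. Those medians were 0.07 in the top fraction, -0.08 in light (64.3% below 0) and 0.16 in heavy polysomes. The heavy median was thus the highest there, whereas Atf5 and Ddit3 were highest in the top fraction. Without the intensity-dependent normalization, and relative to the median gene of each array, the light ratio was the lowest for Atf4 alone of the 3. The light values on that scale were 0.21 for Atf5 and -0.09 for Ddit3.

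Trib3, a pseudokinase that binds ATF4 and dampens it, is read by 2 probes. Its ratio was -0.15 ± 0.21 in the top fraction (1 probe), -0.21 ± 0.15 in light and -0.38 ± 0.15 in heavy polysomes. All 3 values lay below 0, and the probes gave -0.25 and -0.51 in the heavy and -0.37 and -0.05 in the light fraction. The second probe was above background in the top fraction in the control channel alone, a ratio of at least 1.08-fold lower.

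Asns, which encodes asparagine synthetase and carries the classical amino acid response element, was highest in the light fraction. Its control signals were 1537, 9904 and 54588 and its siRNA signals 1703, 37585 and 25170 in the top, light and heavy fraction. The ratios were 0.09 ± 0.20, 0.53 ± 0.21 and 0.09 ± 0.20. The top and heavy ratios were alike, with a difference of 0.00 ± 0.29, and the light ratio lay above the top ratio by 0.44 ± 0.29. Light also had the highest median over all genes at least 2-fold higher in heavy than in top in control cells, as Asns was. Those medians were -0.05 in the top fraction, 0.20 in light (25.2% below 0) and -0.22 in heavy polysomes.

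The 3 members for serine and glycine synthesis had values below 0 in the heavy fraction, where 51.7% of all genes did. All 3 were at least 2-fold higher in heavy than in top in control cells, and 78.2% of all such genes lay below 0. Psph, a serine synthesis gene outside the set, had 0.29 ± 0.15. Shmt2, the mitochondrial enzyme that turns serine into glycine and a one-carbon unit, gave control signals of 376, 3449 and 16918 and siRNA signals of 433, 6575 and 3720 in the top, light and heavy fraction (chr10:126920704-126920763 on mm8, minus strand). Its ratios descended from 0.12 ± 0.20 over -0.36 ± 0.21 to -0.84 ± 0.21. Heavy lay below top by -0.97 ± 0.30, a 1.95-fold difference. This difference had 0.867% of genes at or below it. Its size ran from -0.78 to -1.89 over the alternatives, and was -1.02 relative to the other genes without the intensity-dependent normalization.

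Phgdh, the first enzyme of serine synthesis, is read by 3 probes. Its mean ratio was -0.10 ± 0.12 in the top fraction, -0.08 ± 0.12 in light and -0.45 ± 0.12 in heavy polysomes. The probes agreed in the heavy fraction, with -0.47, -0.47 and -0.42, and 2 of them overlap on the genome. Heavy lay below top by -0.36 ± 0.17. Psat1, the aminotransferase of the second step, had -0.44 ± 0.21 in the top fraction, -0.10 ± 0.20 in light and -0.43 ± 0.21 in heavy polysomes, so that heavy and top differed by 0.02 ± 0.30. Of the 3 enzymes Shmt2 and Phgdh were thus lower in heavy than in top beyond the spot error, and Psat1 was as low in the top as in the heavy fraction.

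Slc7a11 encodes the cystine importer xCT. None of its 4 probes was measured in the top fraction, and 2 were in light and heavy polysomes alike. Their mean was 0.05 ± 0.22 in light and -0.20 ± 0.17 in heavy polysomes. The probes disagreed, with 0.27 and -0.16 in light and 0.09 and -0.48 in heavy polysomes, so no direction is given. Another probe was above background in 1 channel alone, for a ratio of at least 1.11-fold higher in the light and at least 1.21-fold lower in the heavy fraction. Of the 4 genes with the promoter core, Atf3 (0.56 ± 0.21) and Trib3 (-0.38 ± 0.15) lay on opposite sides of 0 in the heavy fraction. Asns (0.09 ± 0.20) lay within its spot error of 0, and Slc7a11 (-0.20) is given no direction.

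The heavy minus top difference compares an mRNA's place in the gradient between the siRNAs, relative to other mRNAs. For 9 members measured on both arrays its median was -0.08, against 0.00 for 10721 genes. Shmt2 alone of the members was past 1.5-fold, downward, where 6.03% of genes were, and 0 members were past it upward, where 7.36% were. At 2-fold in either direction there were 0 members and 1.5% of genes. Atf4, Asns and Psat1 lay within 0.03 of 0, Ddit3 had -0.08 ± 0.29, Trib3 -0.10 ± 0.29 and Atf5 -0.22 ± 0.29. Atf3 had 0.32 ± 0.36, which turned to -0.33 with the software's ratio.

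Where these mRNAs sat in the gradient of control cells separated Atf4, Atf5 and Ddit3 from the enzymes, with the factor gene Atf3 near the middle of all genes. Control signal was compared between arrays after the distributions of the mean log2 signal of both channels were made alike. The control value was derived from that mean and the normalized ratio, so the siRNA channel enters it too. A value is a place relative to other mRNAs and not an amount. Heavy over top was at least 2-fold lower for 3 of 9 members, where 20.5% of genes were, and at least 2-fold higher for 4 of 9, where 15.5% were. The low ones were Atf4 (log2 -2.37, 5.18-fold), Ddit3 (-2.02, 4.05-fold) and Atf5 (-1.10, 2.14-fold). Of all genes, 2.70% lay at or below Atf4, 4.82% at or below Ddit3 and 18.1% at or below Atf5. Against the light fraction Atf5 was the lowest of the 3, with heavy over light of -1.70 (1.0% of genes at or below), beside -1.57 for Atf4 (1.44%) and -1.19 for Ddit3 (3.38%). All 3 mRNAs thus had less of their signal in heavy polysomes than most genes in cells with control siRNA.

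The enzymes lay at the other end. Heavy over top in control cells was 1.36 for Psat1, 1.32 for Asns, 1.21 for Phgdh and 1.04 for Shmt2, and 91.5% of genes lay at or below Psat1. Their order is not settled. No error was computed for these values. With each control channel scaled by itself to its upper quartile, which leaves the siRNA signal out, Shmt2 was at 1.69 and Asns at 1.49. Atf3 (0.17) and Trib3 (-0.08) were near the middle of all genes, whose median was -0.07. The Phgdh probes gave 1.43, 0.77 and 1.44, with the lowest value at the brightest probe.

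**Figure D2:**
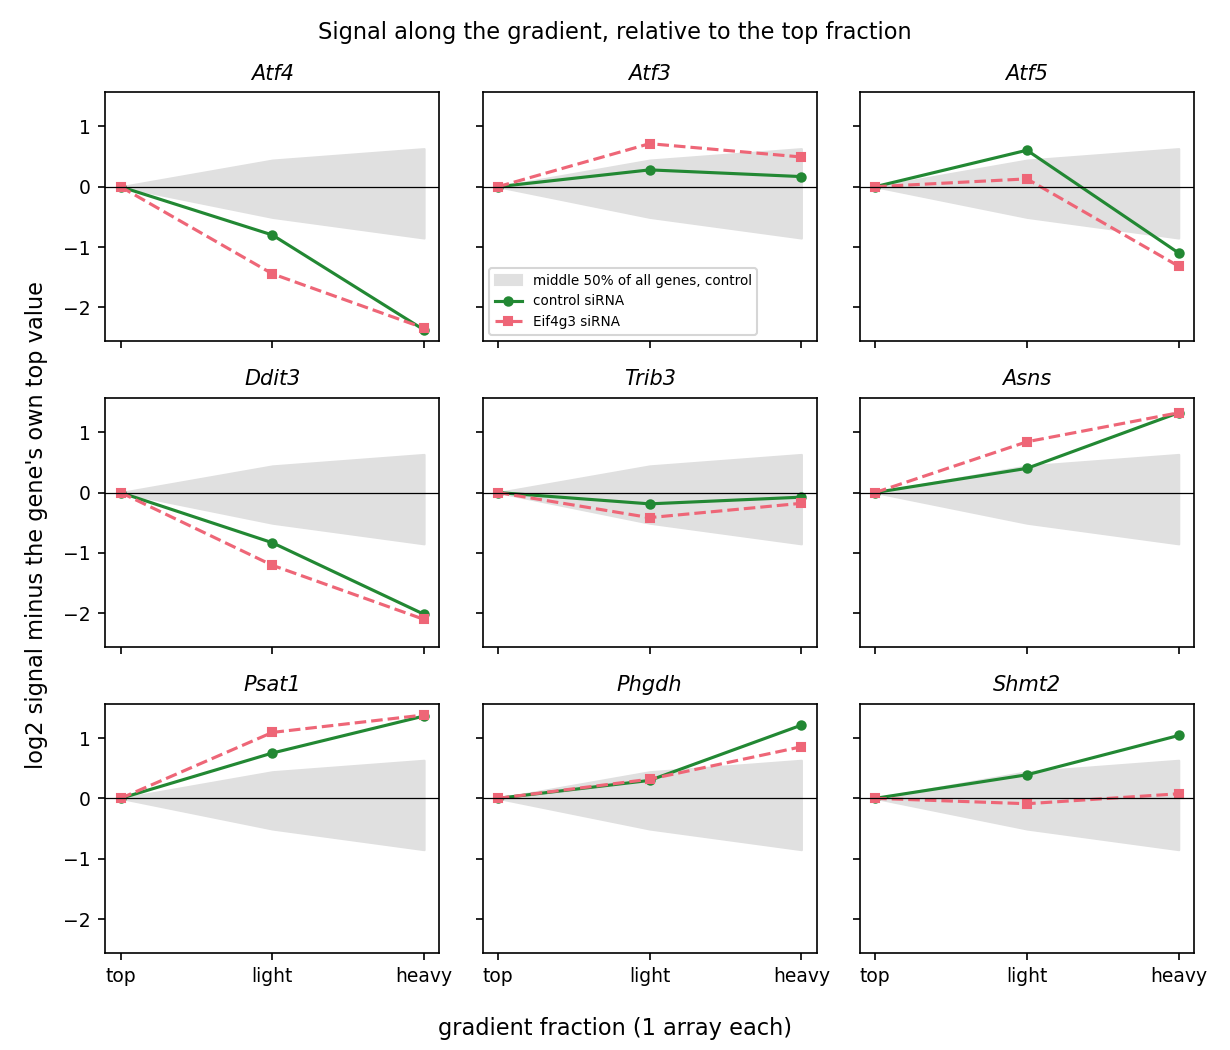
Signal in the light and heavy fraction relative to the gene's own top value (log2, vertical axis) for 9 genes, with control siRNA as circles and Eif4g3 siRNA as squares, 1 array per fraction. The grey band holds the middle 50% of all genes in control cells. Atf4 and Ddit3 lie below the band in both groups, 4 enzymes lie above it in the heavy fraction of control cells, and Shmt2 is at 0.08 in the heavy fraction after Eif4g3 siRNA.

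In heavy over top, most of the 9 genes lay close to their control places after Eif4g3 siRNA. These values are the control value plus the heavy minus top difference and are no independent measure. Atf4 was at -2.34, Ddit3 at -2.10, Atf5 at -1.32, Psat1 at 1.38, Asns at 1.32 and Phgdh at 0.85. Shmt2 went from 1.04 in control to 0.08 in Eif4g3 siRNA cells, close to the median of all genes (-0.06). In light over top the shifts ran from -0.64 ± 0.30 for Atf4 to 0.44 ± 0.29 for Asns. They were larger than those in heavy over top for all but Phgdh and Shmt2.

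The gradient values move with the scaling between arrays, most of all in the light fraction. When each control channel was scaled to its upper quartile, heavy over top relative to the median gene was -1.78 for Atf4, -1.76 for Atf5 and -1.72 for Ddit3, and from 1.44 to 1.91 for the 4 enzymes. Atf3 went from 0.24 to -0.26 and Trib3 from 0.00 to 0.41, so neither has a settled side. In light over top, Atf5 went from 0.62 to -0.51 relative to the median gene and has no settled side either. By the same measure Atf4 went from -0.78 to -0.26 and Ddit3 from -0.82 to -0.41.

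In control cells, heavy over top of other mRNAs known for upstream reading frames was not as low as that of Atf4, Atf5 or Ddit3. This list of 7 was chosen after the members' values were seen. It ran from -0.56 for Ibtk and for Ppp1r15a, a subunit of the eIF2 phosphatase, to 1.05 for Slc35a4 and 1.14 for Ifrd1. The median was -0.08, and 0 of 7 were at least 2-fold lower, where 20.5% of all genes were. A list this short cannot be told apart from that share. In the light fraction 6 of these 7 had siRNA ratios below 0, with a median of -0.26, where 47.4% of all genes lay below 0.

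By distance over the 3 ratios and the 2 control gradient values, the genes nearest to Atf4 among 5319 genes of at least median signal were Slc35c2 (0.199), Camk2n2 (0.217), Pex11a (0.340), Zcrb1 (0.389) and Fgf7 (0.394). The median distance was 2.88. Slc35c2 had a light ratio of -0.67 and a control heavy over top of -2.45, and Fgf7, a fibroblast growth factor, -0.78 and -2.11.

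Of 9 genes for eIF2 kinases, eIF2 phosphatase subunits and their partners, 8 lay above 0 in light and 7 below 0 in heavy polysomes, with medians of 0.26 and -0.17. Of all genes, 52.6% lay above 0 in light and 51.7% below 0 in heavy polysomes. Control heavy over top was above 0 for 6 of 7 measured (median 0.51), where 47.3% of all genes were, and 1 was at least 2-fold higher. All genes at least 2-fold higher there had medians of 0.20 in light (25.2% below 0) and -0.22 in heavy polysomes (78.2%). How far the list follows these was not tested. In the light fraction 1 of 9 was past 1.5-fold upward (3.48% of all genes), Impact, an inhibitor of GCN2 (0.59 ± 0.21), and in the heavy fraction 0 of 9 were past it. The lowest there was Gcn1l1, the activator of the amino acid sensor GCN2 (-0.40 ± 0.15), and the highest Ppp1r15b, the constitutive eIF2 phosphatase subunit (0.45 ± 0.15). Ppp1r15a, the inducible one and an ATF4 pathway target, had -0.35 ± 0.21.

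Of 17 further ATF4 targets, 10 lay below 0 in the heavy fraction, with 1 past 1.5-fold in each direction and a median of -0.15. These shares are near those of all genes, of which 51.7% lay below 0, 3.52% were past 1.5-fold upward and 3.73% downward. Ddit4, an inhibitor of mTOR signalling, was the lowest, at -0.07 ± 0.20 in the top fraction, -1.03 ± 0.22 in light and -1.47 ± 0.24 in heavy polysomes. Chac1, which degrades glutathione, was the highest, at 0.33 ± 0.21, 0.98 ± 0.22 and 0.73 ± 0.21. Cebpg, a C/EBP partner of ATF4, had 0.54 ± 0.14 in the heavy fraction and the secreted glycoprotein gene Stc2 -0.40 ± 0.21.

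Most genes of amino acid metabolism lay below 0 in the heavy fraction, where 51.7% of all genes lay below 0 and 3.73% were at least 1.5-fold lower. Of the serine, glycine and one-carbon genes beside the members, 10 of 11 lay below 0 (median -0.20, 0 past 1.5-fold), with Mthfd1, a cytosolic folate enzyme, at -0.56 ± 0.15. Psph, the last enzyme of serine synthesis, was the exception at 0.29 ± 0.15, and its heavy minus top difference was 0.68 ± 0.21. Of 15 other genes of amino acid synthesis and turnover, 14 lay below 0 (median -0.42) and 3 were past 1.5-fold, among them the proline synthesis gene Aldh18a1 (-0.89 ± 0.23) and the aspartate aminotransferase gene Got2 (-0.65 ± 0.21). Glul, glutamine synthetase, had 0.06 ± 0.13. All 12 amino acid transporter genes lay below 0 (median -0.25) and 1 was past 1.5-fold, the neutral amino acid transporter gene Slc1a4 (-0.61 ± 0.15). Under the alternatives 10 to 12 of the transporters lay below 0, or 8 of 9 with bright probes. Without the intensity-dependent normalization and centred on measured probes, 7 of 11 serine and one-carbon genes and 12 of 15 genes of amino acid synthesis lay below 0.

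The aminoacyl-tRNA synthetase genes, which charge tRNAs and include many ATF4 targets, were the lowest of these lists. In the heavy fraction 18 of 20 lay below 0 and 10 were past 1.5-fold downward, where 51.7% and 3.73% of all genes were. The median was -0.58. Aars for alanine (-0.97 ± 0.16) and Vars for valine (-0.92 ± 0.16) were the lowest, and Dars (0.02 ± 0.15) and Hars (0.08 ± 0.20) the highest. In the top fraction 16 of 19 lay above 0 (median 0.09), where 50.4% of all genes did. In light polysomes 15 of 20 lay above 0 (median 0.18), where 52.6% of all genes did. The heavy minus top difference was below 0 for 19 of 19 (median -0.67), where 50.1% of all genes lay below 0. In that difference Shmt2 (-0.97) lay beyond the lowest synthetase gene, which had -0.91, while Asns, Psat1 and Atf4 lay within 0.03 of 0. The synthetase list kept a median between -0.47 and -1.46 in the heavy fraction under all alternatives, where the last is on an array with a median of -0.73 over all genes.

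Place in the gradient moved with these list values. Control heavy over top had a median of 1.27 for the synthetase genes, 0.84 for amino acid synthesis and 0.68 for transport. All 1657 genes that were at least 2-fold higher in heavy than in top in control cells had a median heavy ratio of -0.22, with 78.2% below 0, and the 2201 genes at least 2-fold lower had 0.16, with 23.7% below 0. The control signal of the heavy array enters both quantities, and how far the lists follow this trend was not tested. Within it, Asns, with a control value of 1.32, had a heavy ratio of 0.09, and Shmt2, with 1.04, had -0.84. By the software's ratio the heavy value of Asns was -0.15 and its heavy minus top difference -0.21.

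Targets of the other arms of the unfolded protein response, ATF6 and IRE1, are given beside these. In the top fraction 13 of 16 lay below 0 (median -0.29), where 49.6% of all genes did, and 4 were past 1.5-fold downward, where 2.5% were, led by the chaperone gene Hspa5 (-0.88 ± 0.22). In the heavy fraction 10 of 17 lay below 0, where 51.7% of all genes did, and 3 were past 1.5-fold downward, where 3.73% were. Their median there was -0.04, from Calr, calreticulin (-0.81 ± 0.16), to Creld2 (0.24 ± 0.20).

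**Figure D3:**
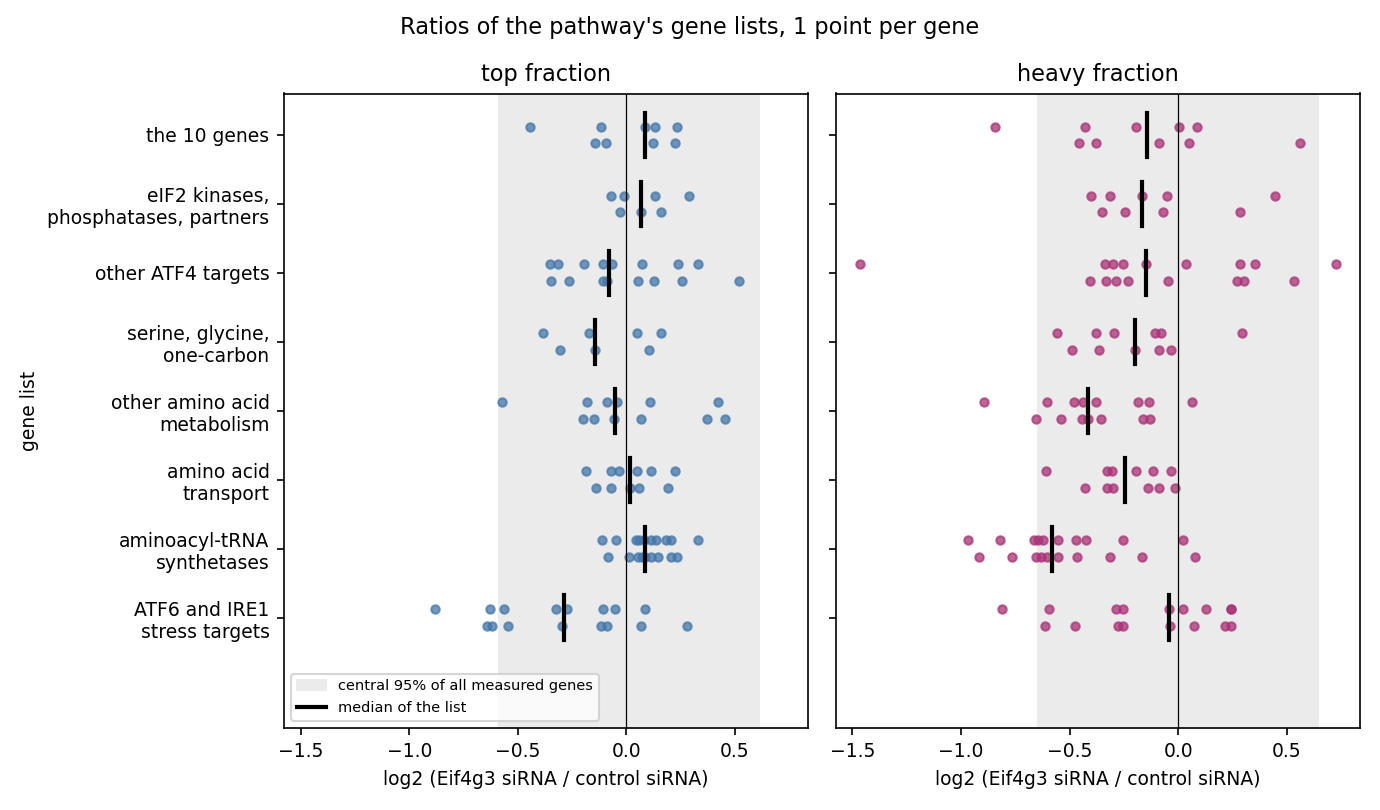
Log2 ratio, Eif4g3 siRNA over control (horizontal axis) for each gene of 8 lists (rows) in the top and the heavy fraction, 1 array each. Black bars are list medians and the grey band holds the central 95% of all measured genes. The tRNA synthetase genes move from a median of 0.09 in the top to -0.58 in the heavy fraction, while the 10 genes spread from -0.84 to 0.56 in the heavy fraction.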

How the data were processed

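Top, light and heavy polysome fractions gave 3 two-colour arrays. Per the file headers, Agilent Feature Extraction 10.5.1.1 wrote the deposited linear intensities, flags, and log10 ratios with their errors. The value table the authors deposited is in log2 and equalled the software's ratio within 0.001 for 100% of measured probes, with column medians of -0.09, -0.01 and 0.22. At these probes it thus holds no further centring of that ratio. Coordinates of probes are on mm8, and exon or UTR places were not determined here.

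Intensities were corrected with normexp (offset 50), normalized within arrays by loess in limma 3.58.1 (R 4.3.3), and, for gradient places, by Aquantile between arrays. The offset compresses dim ratios: slopes on the software's ratio were 0.579, 0.725 and 0.723. Outlier spots were left out (220, 170 and 183), and 0 were saturated. Measured means well above background in both channels; gene values are means over measured probes. The median SD between probes of a gene was 0.11, 0.16 and 0.15, and that of repeated spots 0.07, 0.07 and 0.09. The number of arrays, 1 per fraction, limits the precision. A 1-channel bound divides the bright channel by the dim channel's signal, or by the faintest signal called well above background if that is higher, and is open to dye bias. The ratio steps were run on simulated arrays, where the check asked for the right sign of large changes and not for recovery at 1.5-fold. The simulation did not carry the unequal channel brightness of the light and heavy arrays, so it does not cover that step. From the other lists, genes past 2-fold, and the 2 at either end of the heavy values, were eligible for naming; others named are list examples. The members and lists were chosen with earlier results of these data known. Alternatives were 7 for ratios, 2 for gradient places, and 1 more added after seeing the data.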

Additional observations from a re-analysis of the deposited data

Results flagged for a closer look

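Atf5 had ratios of opposite sign in the top (0.22 ± 0.20) and the light fraction (-0.25 ± 0.21), each beyond its spot error by a small margin. The light minus top difference was -0.475, and it was not tested, since each fraction is 1 array. By the software's ratio the top value of Atf5 was 0.02, and without loess, centred on measured probes, the light value was 0.20.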

How the results depend on the processing

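The medians of the members moved by less than the median spot error under every alternative except those named here. Without loess, centred on all probes, all measured genes shifted to medians of 0.62 (light), -0.73 (heavy) and -0.87 (heavy minus top), and the members with them, to 0.67, -0.94 and -0.996. That setting put 5 members past 1.5-fold upward and 0 downward in the light fraction, 8 downward in the heavy fraction and 9 in heavy minus top, and turned the light ratio of Atf4 to 0.081. Centred on measured probes instead, a setting added after seeing the data, the light median of the members turned from -0.16 to 0.04, and 2 members were past 1.5-fold upward and 0 downward there. An offset of 0 and the software's ratio each called 1 member higher in the top and 1 in the heavy fraction, which is Atf3, and the software's ratio called 2 lower in the heavy fraction, Shmt2 and Phgdh. The median control heavy over top was 0.17, and 0.47 at an offset of 0. For gradient places, which have no error of their own, the spot error of heavy minus top served as the yardstick. Over all genes, 507 were higher and 537 lower at 1.5-fold in the heavy fraction, against 1181 and 831 by the software's ratio, 897 and 778 at an offset of 0, 10 and 8844 without loess, and 2076 and 1036 without loess but centred on measured probes. The light counts of 490 and 371 became 7443 and 9, the top counts of 302 and 274 became 837 and 930 by the software's ratio, and the heavy minus top counts of 789 and 647 became 8 and 7901. Leaving out a replicate was not possible, since each fraction is 1 array. No paired analysis was possible because each fraction has 1 array. The top array is the dimmest, which limits Atf3, Trib3 and Slc7a11 there most.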
